A study of Homo sapiens and Mus musculus with 92 samples.

Results

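The genes described here are ATF4, the transcription factor of the integrated stress response, and 9 genes commonly grouped with it: ASNS, DDIT3, TRIB3, CHAC1, SESN2, PHGDH, PSAT1, PSPH and SLC7A11. They were chosen by name, as the rows of the count tables that carry these symbols, and make up 10 of the 28103 genes in each table. RNA-seq was done in HEL cells, a human erythroleukemia cell line that carries no MLL1 rearrangement, in 2 separate experiments with their own controls. The MLL1 experiment had 3 control and 3 MLL1 KD libraries, and the AF9 experiment had 2 control and 2 AF9 KD libraries, to ask which genes depend on MLL1 (gene symbol KMT2A), a histone H3 lysine 4 methyltransferase, and on AF9 (gene symbol MLLT3), a subunit of the super elongation complex and the DOT1L complex. KD cells received a lentiviral short hairpin RNA (shRNA #1 of each gene), controls, given as wild type in the labels, received a control shRNA by the study's methods, and the transduced cells were selected with puromycin. Each knockdown thus rests on a single shRNA in a pooled cell line, and nothing says that the libraries of a group came from separate cultures, so p-values measure the spread between these libraries, which may be technical.

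In the integrated stress response, kinases that sense amino acid shortage, heme shortage, double-stranded RNA or unfolded protein in the endoplasmic reticulum (ER) phosphorylate the translation initiation factor eIF2. Most translation then slows, while the ATF4 mRNA is translated more through its upstream open reading frames, so the ATF4 mRNA level and ATF4 activity need not move together. ATF4 binds DNA mainly as a heterodimer with a C/EBP family protein and activates genes for amino acid synthesis and import, together with regulators of cell death and of the response itself. Among them, PHGDH, PSAT1 and PSPH are the successive enzymes that make serine from a glycolytic intermediate, and serine feeds glycine, glutathione and one-carbon metabolism. In erythroid cells the heme-regulated eIF2 kinase (EIF2AK1) is a known trigger of this pathway.

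The composite site of ATF4 and C/EBP proteins is commonly written TGATGNAA. A search on both strands of the 250 bases before each annotated start (RefSeq, GRCh38.p14) found it in 2 of the 13 windows of the members, which cover 8 of the 10 genes, and in 3.14% of all 35116 windows. PSPH and SLC7A11 had no entry. The windows with a match belonged to CHAC1, 209 bases before the start, and to ASNS, 68 bases before the start. They are printed, with the match in capitals, beside the window of PHGDH, the gene of the serine pathway that was lower in every KD library of both experiments and whose window held no match. The CHAC1 window is chr15:40953221-40953470 (plus strand), the ASNS window chr7:97872409-97872658 (minus strand) and the PHGDH window chr1:119711684-119711933 (plus strand).
CHAC1: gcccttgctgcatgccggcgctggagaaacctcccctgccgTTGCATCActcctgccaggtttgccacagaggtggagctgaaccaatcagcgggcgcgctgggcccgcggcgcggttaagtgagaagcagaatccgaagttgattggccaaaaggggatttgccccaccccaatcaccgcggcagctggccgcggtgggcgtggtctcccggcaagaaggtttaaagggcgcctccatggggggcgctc
ASNS: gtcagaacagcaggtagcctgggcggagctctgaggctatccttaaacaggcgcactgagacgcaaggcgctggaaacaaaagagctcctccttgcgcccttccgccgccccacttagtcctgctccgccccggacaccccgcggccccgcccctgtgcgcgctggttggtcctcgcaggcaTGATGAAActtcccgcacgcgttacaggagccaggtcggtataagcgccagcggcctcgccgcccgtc
PHGDH: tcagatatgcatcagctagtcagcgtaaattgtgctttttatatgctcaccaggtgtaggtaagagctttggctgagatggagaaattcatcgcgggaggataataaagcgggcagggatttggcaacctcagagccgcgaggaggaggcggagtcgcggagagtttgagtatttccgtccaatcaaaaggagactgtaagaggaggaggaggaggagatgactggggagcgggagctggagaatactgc
A match is a run of letters and not a shown binding site, and the absence of these letters says nothing about ATF4 at that gene.

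Before the members, the targeted genes and the libraries were checked. In the MLL1 experiment KMT2A was at 1320, 1304 and 1256 counts scaled to library size (CPM) in control replicates 1 to 3 and at 817, 814 and 833 CPM in the KD replicates, a log2 fold change of -0.66 ± 0.09 (SE) with an adjusted p of 0.0721 in edgeR's quasi-likelihood test, and of 2.26e-07 with the replicate number as a block. In the AF9 experiment MLLT3 fell from 548 and 528 CPM to 107 and 92.6 CPM (log2 fold change -2.43 ± 0.11, adjusted p = 3.17e-08). Each knockdown also had a lower estimate for the other gene, under 1.5-fold. KMT2A was at -0.32 ± 0.09 in AF9 KD (adjusted p = 0.02). MLLT3 was at -0.28 ± 0.15 in MLL1 KD (adjusted p = 0.613, and 0.017 with the block). Total counts ranged from 6966345 to 10380241 in the MLL1 experiment and from 12278989 to 14232408 in the AF9 experiment. All 5 erythroid markers used (GATA1, KLF1, TAL1, HBG1, HBG2) had counts in both experiments, with a summed level of 1269 to 1288 CPM in controls and 1102 to 1145 CPM in KD libraries of the MLL1 experiment. In the AF9 experiment this sum was 8391 to 8556 CPM in controls and 5736 to 6708 CPM in KD libraries. Of the 6 megakaryocyte markers ITGA2B, ITGB3 and GP1BA were well above 1 CPM everywhere, and the others were low. PF4 was at 4.13 to 21 CPM in the MLL1 experiment and 0.622 to 1.42 CPM in the AF9 experiment. PPBP reached only 0.503 and 0.156 CPM in these experiments, and VWF 1.75 and 0.0778 CPM, respectively. ITGA2B, at 1019 to 1482 CPM and 787 to 1175 CPM, made up most of the sum over the list. Summed levels were 1742 to 1766 CPM in controls and 1470 to 1567 CPM in KD libraries of the MLL1 experiment. Those of the AF9 experiment were 1003 to 1114 CPM and 1074 to 1388 CPM. The erythroid sum of both experiments and the megakaryocyte sum of the MLL1 experiment thus differed between KD and control libraries without overlap. Their part in the results of the members was not tested. In the AF9 experiment the fetal globins HBG1 (1953 to 3065 CPM) and HBG2 (2955 to 4721 CPM) made up most of the erythroid sum. TAL1 spanned only 454 to 476 CPM there, KLF1 92.7 to 126 CPM and GATA1 175 to 247 CPM. The sums therefore do not show a change of each marker. Of 7 markers of other cell types, PTPRC and PECAM1, which blood cells also carry, made up nearly all of the summed 240 to 689 CPM. CD3E, CD14 and ALB stayed under 1 CPM in every library, COL1A2 reached 7.21 CPM in the MLL1 experiment and EPCAM 3.18 CPM in the AF9 experiment. In bulk RNA, fewer cells of a state and less RNA per cell cannot be told apart.

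A single library, MLL1 KD replicate 1, was the lowest of the 6 MLL1 experiment libraries for 10 of 10 members. The share of all genes for which it was lowest is not given here. Control replicate 1 was also the lowest control for every member but ATF4. Over all genes tested, the replicate 1 libraries of both groups deviated together from their group means (correlation 0.648). Whether the low level was particular to these genes was not tested. Averaged over the 9 members tested in both experiments, it lay at -1.31 on the log2 scale from the mean of its experiment, while the other MLL1 experiment libraries lay between -0.06 (control replicate 1) and 0.41 (control replicate 2). In the AF9 experiment the same average was 0.24 and 0.46 in the controls and -0.58 and -0.13 in KD replicates 1 and 2. Estimates of the members in the MLL1 experiment are therefore also given without this library.

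**Figure D1:**
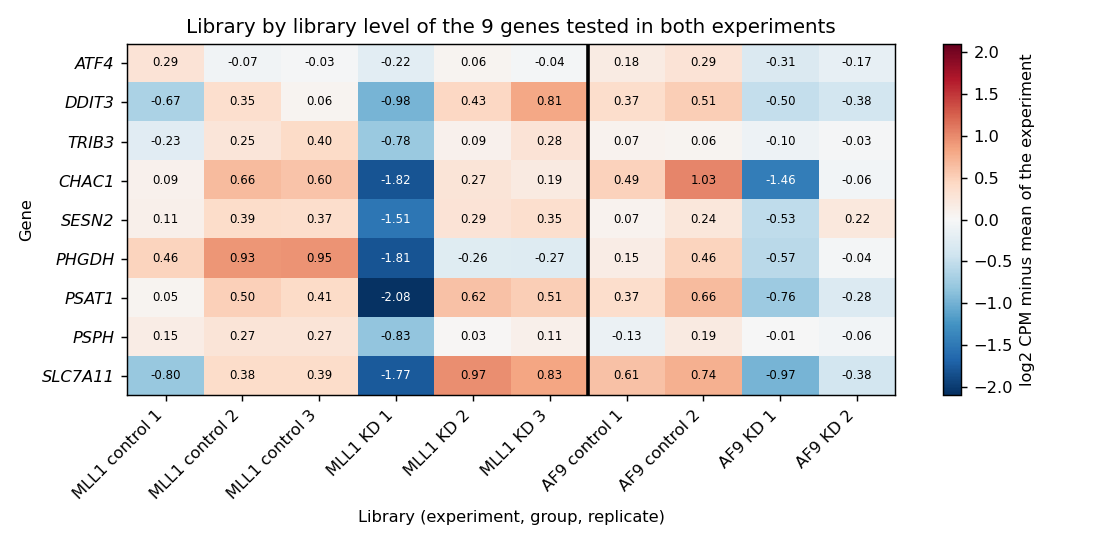
Level of the 9 genes tested in both experiments in each of the 10 libraries, as log2(CPM + 0.5) minus the mean of that gene over the libraries of its experiment (blue below, red above, number in each cell). MLL1 KD replicate 1 is blue for all 9 genes, down to -2.08 for PSAT1, and AF9 KD replicate 1 lies below 0 for all 9, from -0.01 for PSPH, which shows as nearly white, to -1.46 for CHAC1.

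Levels between genes were compared per length, as TPM, counts per base of merged exon scaled to the same sum in each library. The order depends on the length used, such as 9187 bases for PHGDH and 2206 bases for PSAT1. Without length, PHGDH had more reads than PSAT1, at a mean of 298 against 140 CPM in the MLL1 experiment controls. In the AF9 experiment controls the means were 195 and 160 CPM. In the controls of the MLL1 experiment ATF4 was highest at 904 ± 158 TPM (SD, n = 3), followed by PSAT1 at 244 ± 31.7 and CHAC1 at 142 ± 25.3. PHGDH had 125 ± 19.6 TPM and SESN2 108 ± 8.52 TPM, and the ranges of CHAC1 and PHGDH, and those of PHGDH and SESN2, overlapped. DDIT3 (75.1 ± 23.5), TRIB3 (67.8 ± 13.2), SLC7A11 (66.3 ± 25.2) and PSPH (48.4 ± 0.983) formed a run in which each neighbour overlapped the next, and ASNS was lowest at 14.7 ± 3.42 TPM. In the controls of the AF9 experiment ATF4 (745 ± 31.6 TPM, SD, n = 2) and PSAT1 (308 ± 40.7) again led. DDIT3 (92.6 ± 5.57) and PHGDH (90.3 ± 12.8) overlapped, as did PSPH (26.3 ± 3.98) and SESN2 (26.2 ± 1.9), and SLC7A11 (20.7 ± 1.1) and CHAC1 (20.5 ± 5.45). ASNS, asparagine synthetase, was at 0.421 ± 0.326 TPM there, from 3 and 9 counts. The tables were counted and scaled separately and the experiments hold different libraries. The cell state, the batch and the controls thus cannot be told apart in the lower control levels of ASNS and CHAC1 in the AF9 experiment. ASNS also shares 99.5% of its 31-base stretches with other annotated genes, and the part of read assignment in its levels was not tested.

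**Figure D2:**
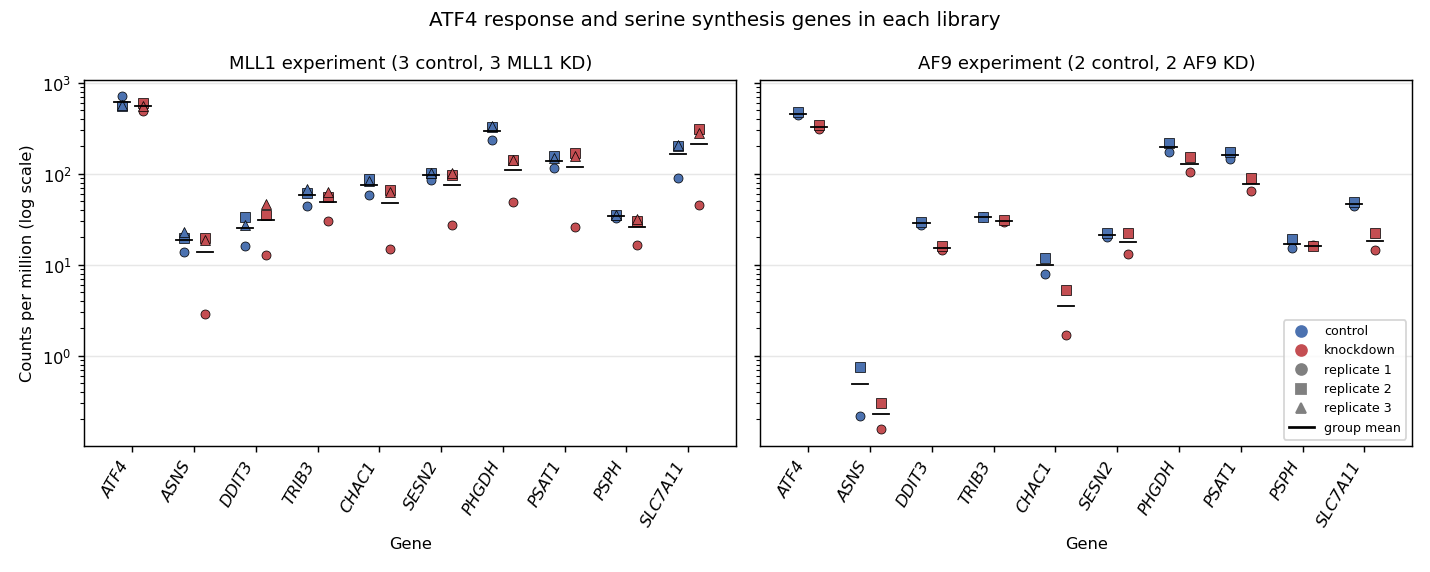
Counts scaled to library size (CPM, log axis) of the 10 genes in each library of the MLL1 experiment (left) and the AF9 experiment (right), with controls in blue, KD in red, replicate numbers as symbols and group means as bars. The circle of MLL1 KD replicate 1 lies below all other points for every gene on the left, and the KD points of DDIT3, CHAC1, PHGDH, PSAT1 and SLC7A11 lie below the control points on the right.

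In AF9 KD cells 5 of the 9 members tested fell and none rose: DDIT3, CHAC1, PHGDH, PSAT1 and SLC7A11 were lower by at least 1.5-fold at an adjusted p under 0.05. Over all 13334 genes tested, 674 (5.05%) passed in this direction and 1069 (8.02%) were higher. The 9 members had a median log2 fold change of -0.59, beside 0.01 over all genes, and in 7 of the 9 both KD libraries lay below both controls. AF9 KD replicate 1 was the lowest of the 4 libraries for 8 of the 9. The shares of all genes with these positions are not given here, so both counts only describe the members. Called genes as a whole were higher in 61.3% of cases, a share that was 76.4% when libraries were scaled by total counts, which moved the median of all genes to 0.10, and 46.5% with offsets for GC content. The fold changes of this experiment rose with the GC content of the gene (Spearman's rho = 0.492 across 13052 genes, which are not independent). The members called lower were called with GC offsets too, and scaling by total counts left 4 of them, without PHGDH. Under GC offsets the estimates were -0.90 for DDIT3, -1.89 for CHAC1, -0.84 for PHGDH, -0.89 for PSAT1 and -1.07 for SLC7A11.

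ATF4 itself was at 441 and 475 CPM in the controls and 314 and 345 CPM in the AF9 KD libraries. The groups did not overlap, and the log2 fold change of -0.47 ± 0.10 (SE, 95% confidence interval -0.69 to -0.26) had an adjusted p of 0.00304, but at 0.719-fold it missed the fold threshold. The gene (chromosome 22, 39519695 to 39522683, plus strand) shares 53.8% of its 31-base stretches with other annotated genes, mainly pseudogenes, so part of its reads could have been left out or assigned elsewhere.

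Of the regulators under ATF4, DDIT3 (CHOP), a C/EBP family factor linked to stress-induced cell death, had 27.1 and 29.9 CPM in controls and 14.6 and 15.9 CPM in AF9 KD cells. Both KD libraries were thus close to each other and below both controls (log2 fold change -0.90 ± 0.14, adjusted p = 4.38e-04). CHAC1, which degrades glutathione, had 7.99 and 11.8 CPM in controls and 1.7 and 5.32 CPM in KD libraries. Both KD libraries of CHAC1 lay below both controls, on 22 and 71 counts against 110 and 141, with a wider ratio between the KD libraries than between the controls, and the log2 fold change was -1.48 ± 0.36 (adjusted p = 0.00715). With DESeq2 on the same genes CHAC1 was not called (adjusted p = 0.166), and its estimate was -0.89 without AF9 KD replicate 1 and -2.52 without AF9 KD replicate 2. TRIB3, a pseudokinase that restrains ATF4 and CHOP, was at 33.6 and 33.4 CPM against 29.7 and 31.3 CPM, a log2 fold change of -0.13 ± 0.12 (adjusted p = 0.429, 95% confidence interval -0.39 to 0.12). With GC offsets the TRIB3 estimate was -0.56 (adjusted p = 0.00283), just under 1.5-fold. SESN2, a sestrin that restrains mTORC1 when leucine is short, had 20.1 and 22.6 CPM in controls and 13.1 and 22.4 CPM in KD libraries, which overlapped (-0.26 ± 0.20, adjusted p = 0.348). Without AF9 KD replicate 2 the SESN2 estimate was -0.70 and passed (adjusted p = 0.00356), and without AF9 KD replicate 1 it was 0.07. With GC offsets it was -0.58 (adjusted p = 0.0197), just under 1.5-fold, and with GC offsets and the replicate block SESN2 was called lower (-0.61, adjusted p = 1.39e-04).

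In the serine pathway the first 2 enzymes fell in AF9 KD cells and the last did not pass. PHGDH, which commits 3-phosphoglycerate to serine, had 175 and 216 CPM in controls and 106 and 153 CPM in KD libraries. The log2 fold change of -0.59 ± 0.15 (adjusted p = 0.00881) lay at the fold threshold, at 0.663-fold. PHGDH was lost as a call with DESeq2 on the same genes (adjusted p = 0.152), with total counts (log2 fold change -0.50), with a stricter level filter (-0.57), and without AF9 KD replicate 1 (-0.35) or control replicate 2 (-0.43). PSAT1, the aminotransferase of the second step, was at 144 and 176 CPM against 65.4 and 91.2 CPM, so that its level was 0.491-fold (-1.03 ± 0.14, adjusted p = 2.39e-04). PSPH, the phosphatase that releases serine, was at 15.2 and 19.1 CPM against 16.6 and 16 CPM, with the KD libraries inside the control range (-0.07 ± 0.16, adjusted p = 0.768, 95% confidence interval -0.41 to 0.26). Its estimate turned to 0.02 with total counts.

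Of the 2 remaining members, SLC7A11, the cystine-importing subunit of system xc-, had 44.8 and 49 CPM in controls and 14.6 and 22.4 CPM in AF9 KD libraries. This was 0.396-fold (log2 fold change -1.34 ± 0.17, adjusted p = 1.24e-04), and both KD libraries lay below both controls. SLC7A11, PSAT1 and DDIT3 were called in every alternative tried at the 1.5-fold threshold. ASNS had 3 and 9 counts in the controls and 2 and 4 counts in the KD libraries and was below the level filter, so it was not tested, and no change was detectable at this depth. ASNS (chromosome 7, 97851677 to 97872542, minus strand) shares 99.5% of its 31-base stretches with other annotated genes, mainly an overlapping gene model, and its counts are uncertain for that reason.

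In MLL1 KD cells no member was called in edgeR's test without a block, where 5 of 14396 genes were higher (0.0347%) and 5 were lower (0.0347%), and 1437 genes had an unadjusted p under 0.05. Same-numbered libraries of this experiment deviated together (correlations 0.648, 0.326 and 0.352), but replicates 2 and 3 did so across numbers as well (0.36 and 0.369). Only replicate 1 thus stood apart as a pair, and blocked values rest on a pairing not shown for the others. With the replicate number as a block PHGDH and CHAC1 fell and no member rose, beside 320 genes higher (2.22%) and 364 lower (2.53%) of all tested. DESeq2 on the same genes called PHGDH. The median of the 10 members was -0.31 without the block and 0.03 without MLL1 KD replicate 1, and over all genes it was 0.01 and -0.01. With the block the median of the members was -0.49, and with replicates 2 and 3 alone it was -0.10. Over all genes these medians were 0.0024 and -5e-04.

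PHGDH was the member with the clearest difference in the MLL1 experiment. It had 236, 327 and 333 CPM in control replicates 1 to 3 and 48.5, 143 and 142 CPM in the KD replicates. All 3 KD libraries lay below all 3 controls, with the lowest value in KD replicate 1. The log2 fold change was -1.43 ± 0.38 (SE) with an adjusted p of 0.264 in edgeR, and -1.54 ± 0.14 with an adjusted p of 7.06e-07 with the replicate block. DESeq2 on the same genes gave -1.42 with an adjusted p of 0.0156. With replicates 2 and 3 alone the value was -1.21 (adjusted p = 1.96e-37), and without MLL1 KD replicate 1 it was -1.06 (adjusted p = 0.0529), so that the lower level of PHGDH was also measured in the other KD libraries. PHGDH lies on chromosome 1 from 119648411 to 119744218 (plus strand, hg38), and none of its 31-base stretches occurs in another annotated gene.

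The other enzymes of serine synthesis were not called in the MLL1 experiment. PSAT1 was at 115, 157 and 148 CPM in controls and at 25.9, 171 and 158 CPM in KD libraries. KD replicates 2 and 3 were above every control and replicate 1 was below, and the log2 fold change of -0.24 ± 0.57 (adjusted p = 0.948) became 0.24 without KD replicate 1 (adjusted p = 0.507). With replicates 2 and 3 alone it was 0.11 (adjusted p = 0.275). PSPH was at 32.8, 35.6 and 35.7 CPM against 16.4, 30.2 and 31.9 CPM. Its KD libraries were all below the controls, as those of PHGDH were. The estimate of -0.41 ± 0.25 did not pass with or without the block (adjusted p = 0.0594 and 0.672, respectively). It was -0.16 without KD replicate 1 and -0.20 with replicates 2 and 3 alone.

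Of the regulators in the MLL1 experiment, CHAC1 had 58.2, 86.8 and 83 CPM in controls and 15.1, 65.9 and 62.5 CPM in KD libraries. Each KD library was below the control of the same number, and the groups overlapped. Its log2 fold change was -0.67 ± 0.48 (adjusted p = 0.73) without the block, -0.84 ± 0.19 (adjusted p = 0.00558) with it, and -0.40 with replicates 2 and 3 alone (adjusted p = 3.22e-04, under 1.5-fold). Without KD replicate 1 it was -0.24 (adjusted p = 0.587). ATF4 was at 711, 553 and 568 CPM against 497, 606 and 564 CPM and did not pass (-0.14 ± 0.14, adjusted p = 0.832, 95% confidence interval -0.46 to 0.18). Its estimate was -0.06 without KD replicate 1 and 0.06 with replicates 2 and 3 alone. DDIT3 was at 16.3, 33.4 and 27.2 CPM in controls and 12.9, 35.3 and 46.2 CPM in KD libraries. Its replicate 1 was the lowest library in both groups, and the estimate was 0.30 ± 0.45 (adjusted p = 0.907), or 0.68 without KD replicate 1 (adjusted p = 0.341). With replicates 2 and 3 alone DDIT3 was at 0.44 (adjusted p = 0.0117), under 1.5-fold. TRIB3 had 44, 61.7 and 68.4 CPM against 30, 55 and 63.2 CPM (-0.23 ± 0.29, adjusted p = 0.876). SESN2 had 84.8, 103 and 102 CPM against 27.3, 96.7 and 101 CPM (-0.37 ± 0.42, adjusted p = 0.859). Apart from replicate 1, the KD libraries of TRIB3 and SESN2 lay within the control range, and both estimates were 0.03 without KD replicate 1. With replicates 2 and 3 alone they were -0.13 and -0.06 (adjusted p = 0.409 and 0.692, respectively).

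SLC7A11 varied widely within both groups of the MLL1 experiment. It had 90, 205 and 206 CPM in control replicates 1 to 3 and 45.7, 309 and 279 CPM in the KD replicates. KD replicates 2 and 3 lay above every control and KD replicate 1 below every control, and no difference was called (0.34 ± 0.63, adjusted p = 0.929, 95% confidence interval -1.13 to 1.80). With replicates 2 and 3 alone the estimate was 0.51 with an adjusted p of 5.99e-13, below 1.5-fold, and without KD replicate 1 it was 0.82 (adjusted p = 0.301). ASNS had 13.7, 19.5 and 23 CPM in controls and 2.89, 19.6 and 18.7 CPM in KD libraries (-0.46 ± 0.59, adjusted p = 0.883). Its estimate was 0.03 without KD replicate 1 and -0.16 with replicates 2 and 3 alone. Its counts are uncertain here too, because of the shared stretches.

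**Figure D3:**
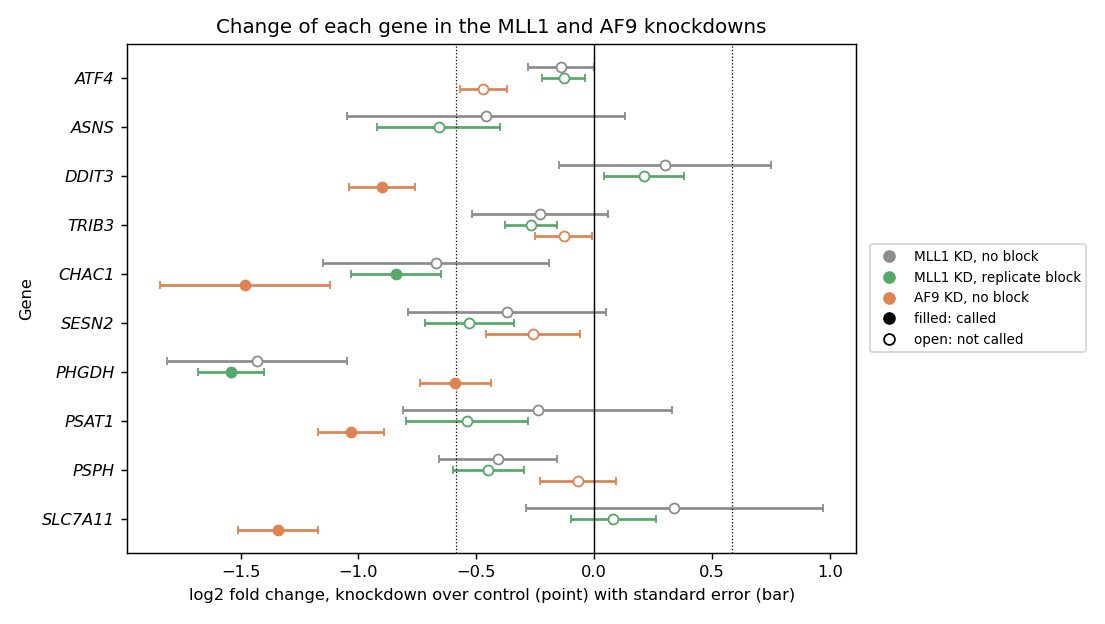
Log2 fold change of KD over control (points) with its standard error (bars) for the 10 genes in MLL1 KD without a block (grey), MLL1 KD with the replicate block (green) and AF9 KD (orange). Filled points passed 1.5-fold (dotted lines) at an adjusted p under 0.05, which holds for 5 genes in AF9 KD and for PHGDH and CHAC1 in MLL1 KD with the block, and ASNS has no AF9 KD value.

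Whether a member responded differently to the 2 knockdowns was tested as the difference of their effects over all 10 libraries. No member passed (adjusted p from 0.372 to 0.966 over 9 members), while 169 of 12733 genes did (1.33%), and 2192 genes had an unadjusted p under 0.05. The largest differences of AF9 KD minus MLL1 KD were those of SLC7A11, -1.69 ± 0.92 (adjusted p = 0.392), and DDIT3, -1.21 ± 0.63 (adjusted p = 0.372). PHGDH was 0.82 ± 0.55 in the other direction (adjusted p = 0.498). With the replicate number of each experiment as a block 24.3% of all genes passed. Among them were SLC7A11 (-1.45 ± 0.32, adjusted p = 0.00395) and DDIT3 (-1.14 ± 0.25, adjusted p = 0.00317), whose values were lower in AF9 KD. PHGDH (0.92 ± 0.22, adjusted p = 0.00648), whose fall was larger in MLL1 KD, passed too. This fit also blocked the AF9 libraries by number, although those numbers were not taken to pair them (correlation 0.157), so its calls carry that limit. Without MLL1 KD replicate 1 the share of all genes that passed was 7.52%, and the members called were SLC7A11 (-2.18, adjusted p = 0.0197), DDIT3 (-1.60, adjusted p = 0.0278) and PSAT1 (-1.28, adjusted p = 0.0157). That fit kept control replicate 1 of the MLL1 experiment, which limits these calls.

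The wider pathway was read from 7 lists with 102 genes. In AF9 KD cells 5 of the 94 tested were higher and 6 lower, or 5.32% and 6.38%, beside 8.02% and 5.05% of all genes. Of the 10 genes tested among the 15 ATF4 partners and other stress targets, 3 fell and 2 rose, with a median of -0.45. KLHL24, a stress-induced ubiquitin ligase adaptor, fell from 121 and 112 CPM to 43.1 and 52.3 CPM (log2 fold change -1.29 ± 0.11, adjusted p = 9.15e-06). DDIT4 (REDD1), an mTORC1 inhibitor, fell from 50.1 and 63.9 CPM to 17.7 and 33.9 CPM (-1.14 ± 0.22, adjusted p = 0.00178), and ATF3, a transcription factor induced by ATF4, from 5.16 and 9.24 CPM to 1.94 and 4.49 CPM (-1.14 ± 0.35, adjusted p = 0.0261). ATF3 was not called without AF9 KD replicate 1 (-0.66, adjusted p = 0.106) or control replicate 2 (-0.68, adjusted p = 0.199), and DDIT4 was not called with DESeq2 on the same genes (adjusted p = 0.0694). ATF5, an ATF4-related factor, rose from 10 and 9.83 CPM to 15.1 and 17.1 CPM (0.70 ± 0.16, adjusted p = 0.00576), and TNFRSF10B, a death receptor under CHOP, from 1.38 and 0.84 CPM to 2.56 and 2.62 CPM (1.20 ± 0.36, adjusted p = 0.025). With GC offsets ATF5 was not called (log2 fold change 0.37, adjusted p = 0.0669), and TNFRSF10B was not called without control replicate 2 (0.90, adjusted p = 0.207).

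Among the other lists in AF9 KD cells, the 20 cytosolic aminoacyl-tRNA synthetases, which charge tRNAs with amino acids, had a median of -0.31. None was called at 1.5-fold, and by adjusted p alone 10 were lower and 2 higher, beside 14.5% and 14.4% of all genes. Of 11 amino acid transporters SLC1A4, a neutral amino acid carrier, fell (-0.70 ± 0.13, adjusted p = 0.00162) and SLC6A9, a glycine carrier, rose (0.68 ± 0.22, adjusted p = 0.0345, and 0.36 with an adjusted p of 0.211 under GC offsets). Without AF9 KD replicate 1 SLC1A4 was at -0.53, under 1.5-fold, and SLC6A9 at 0.64 (adjusted p = 0.0524), and without control replicate 1 SLC6A9 was at 0.37 (adjusted p = 0.451). Of 15 one-carbon, proline and transsulfuration enzymes tested PYCR3, a proline synthesis enzyme, rose from 1.53 and 2.27 CPM to 3.95 and 4.64 CPM (1.19 ± 0.30, adjusted p = 0.0102, 0.0535 under GC offsets and 0.16 without control replicate 1), and the list had a median of -0.01. None of the 12 genes of the eIF2 kinases, eIF2 and eIF2B list was called at 1.5-fold, and by adjusted p alone 4 of them were lower and none higher.

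Of 17 genes of the ER chaperone, ATF6 and XBP1 list, DNAJB9, an ER co-chaperone, fell from 28.4 and 24.9 CPM to 10.8 and 11 CPM (-1.29 ± 0.15, adjusted p = 6.55e-05). XBP1, the transcription factor of a parallel branch of the unfolded protein response, fell from 165 and 164 CPM to 108 and 105 CPM (-0.63 ± 0.09, adjusted p = 3.33e-04, and -0.54, under 1.5-fold, with total counts). SDF2L1, another ER protein of this response, rose from 1.53 and 1.93 CPM to 6.12 and 4.79 CPM (1.66 ± 0.29, adjusted p = 0.00114), so the called genes of this list went in both directions. With GC offsets the SDF2L1 estimate was 1.04 (adjusted p = 0.0227). None of the 9 genes tested of the NRF2 list, which shares SLC7A11 as a target, was called, and the median was 0.21.

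**Figure D4:**
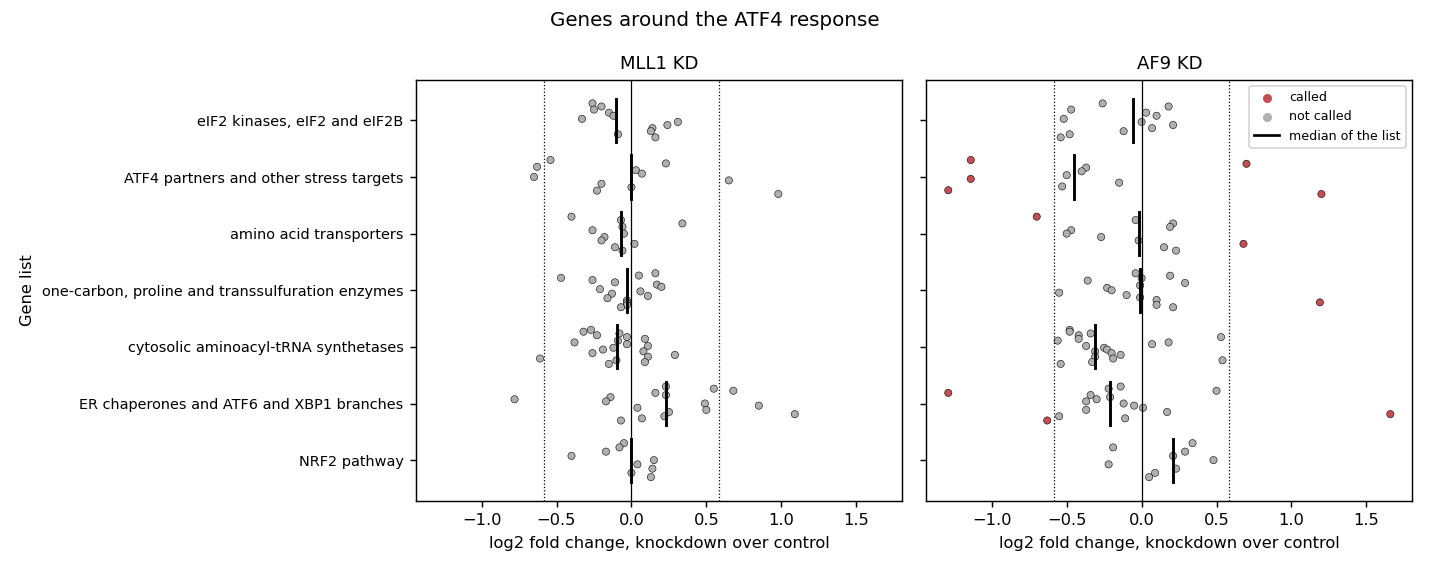
Log2 fold change of KD over control for the tested genes of the 7 lists in MLL1 KD (left, no block) and AF9 KD (right), with called genes in red, other genes in grey, the list median as a black bar and 1.5-fold as dotted lines. In MLL1 KD none of 96 genes is red, and in AF9 KD 11 of 94 are red, with the lowest list median, -0.45, among the ATF4 partners and other stress targets.

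In MLL1 KD cells none of the 96 list genes tested was called without the block, and with it 1 was higher and 4 lower, or 1.04% and 4.17%, beside 2.22% and 2.53% of all genes. ERO1A, an oxidase of protein folding in the ER, rose from 27.4, 31.7 and 32.1 CPM to 49.1, 45.8 and 48.2 CPM (0.65 ± 0.12, adjusted p = 0.00111 with the block and 0.168 without). ERN1, the kinase IRE1 that splices the XBP1 mRNA, fell from 68.2, 87.6 and 86 CPM to 40.3, 50.2 and 50.5 CPM (-0.78 ± 0.10, adjusted p = 2.56e-05 with the block and 0.165 without). TARS, the threonyl-tRNA synthetase, fell from 368, 320 and 299 CPM to 211, 215 and 222 CPM (-0.60 ± 0.08, adjusted p = 3.67e-05 with the block and 0.149 without). In these genes no KD library overlapped the controls. DDIT4 was at 117, 282 and 247 CPM in controls and 11, 201 and 199 CPM in KD libraries, with an estimate of -1.13 ± 0.31 (adjusted p = 0.0207) with the block and -0.65 (adjusted p = 0.883) without. BBC3 (PUMA), a cell death gene, was at 8.39, 24.6 and 28.7 CPM against 2.39, 16.6 and 21.2 CPM (-0.77 ± 0.20, adjusted p = 0.0166 with the block and 0.86 without). For both, KD replicate 1 was the lowest library, and without it and without the block the estimates were -0.10 for DDIT4 (adjusted p = 0.91) and -0.11 for BBC3 (adjusted p = 0.929). These fits kept control replicate 1, the lowest control of both genes. With replicates 2 and 3 alone DDIT4 was at -0.40 (adjusted p = 2.31e-08), under 1.5-fold.

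The members' own profiles were alike across libraries. Centred within each experiment over the 10 libraries, each of the 9 members tested in both was compared with the mean of the other 8, and Pearson's r was highest for PSAT1 (0.99), CHAC1 (0.94) and SESN2 (0.94) and lowest for ATF4 (0.56). The genes closest to the mean profile of the 9 members, of 12724 compared, were AARS (r = 0.998), the alanyl-tRNA synthetase, SLC1A4 (0.993), DDIT4 (0.988), LASP1 (0.987), an actin-binding protein, and SLC3A2 (0.980), the heavy chain that pairs with SLC7A11. These correlations are a description, since the libraries share their groups and the profile is set largely by MLL1 KD replicate 1. In that library AARS lay at -1.03 and DDIT4 at -3.44 on the log2 scale from the mean of the experiment. The part of library quality or culture state in this profile was not tested.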

How the data were processed

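RNA-seq counts of 10 HEL libraries were used. The authors filtered the reads with fastp 0.13.1, mapped them to hg38 with HISAT2 2.1.0 and counted them by strand with featureCounts 1.6.1 (versions per the labels and the study's methods). The annotation behind the gene symbols is not given in the sources used here. The deposited values are raw counts per gene symbol and library, with no normalization. CUT&Tag and PRO-seq samples were not analysed here. Gene lengths, GC content and positions came from GENCODE version 44, where 25237 symbols matched directly, 727 through an older symbol and 2139 not (92.4% matched), and promoter sequences from RefSeq (GRCh38.p14).

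Genes were kept where TPM averaged 1 or more across the libraries of an experiment, and were tested with edgeR 4.0.16 (quasi-likelihood test, TMM factors, R 4.3.3), KD against the controls of the same experiment, with Benjamini-Hochberg adjustment over all genes tested, and called at 1.5-fold or more and an adjusted p under 0.05. CPM are scaled with TMM factors, except for the marker genes, where total counts were used, and for profiles 0.5 was added before the log2. The difference of both knockdown effects was tested over all 10 libraries and called by adjusted p alone. Alternatives were DESeq2 1.42.0, other scaling and filters, GC offsets, a replicate block, and leaving out libraries. Of these fits, edgeR without a block and DESeq2 were tested on simulated counts with known fold changes and no replicate effect. The other fits were not tested in this way.

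In the MLL1 experiment libraries with the same replicate number deviated together from their group means (correlations 0.648, 0.326 and 0.352). Replicates 2 and 3 also correlated across numbers (0.36 and 0.369), so a pairing was clear for replicate 1 only. The numbers were still used as a block, and blocked values stand beside the results they change. Library sizes limit the precision. The confidence intervals given are those of the fold change estimates and, like the p-values, include the spread between the libraries of a group.

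The 10 members, the 7 pathway lists and the 3 marker lists were chosen with earlier results of these data known. Some markers are not reported here and were left out of the summed levels. The text names all members, KMT2A and MLLT3, up to 8 called list genes per direction with the largest change in each fit, and the 5 genes closest to the mean profile of the members.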

Additional observations from a re-analysis of the deposited data

How the results depend on the processing

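Counts of calls changed with the setting in both experiments, and so did the calls over all genes. In the AF9 experiment 1743 of 13334 genes were called, and 1361 or 1344 with DESeq2 on the same genes or on all genes before the filter. A threshold of 2-fold left 510 genes there, and no fold threshold gave 3862. In the difference of both effects 1.33% of all genes passed, 24.3% with the replicate block and 7.52% without MLL1 KD replicate 1. In the MLL1 experiment 0 members and 0 list genes were called without a block, among 10 of 14396 genes. These became 2 and 5 with the replicate block (684 of all genes) and with GC offsets and the replicate block (668). DESeq2 on the same genes (232 of all genes) or on all genes before the filter (218) gave 1 and 3. Replicates 2 and 3 alone gave 1 and 2 (696 of all genes). Leaving out 1 library gave 0 of both, which says little, since no gene at all was then called. The exception was the fit without MLL1 KD replicate 1, which called 53 genes. In the AF9 experiment the 5 members called became 3 with either DESeq2 setting and 3 at a threshold of 2-fold, and leaving out 1 library gave 4 to 6. Its 11 list genes became 7 with DESeq2 on all genes before the filter, 7 at 2-fold and 38 with no fold threshold, and 8 to 19 when 1 library was left out, with 19 reached without AF9 KD replicate 2. The 0 members called in the difference of both effects became 3 with the replicate block and 0 to 3 when 1 library was left out, with 3 reached without MLL1 KD replicate 1.

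Estimates that turned their sign were all of members not called. In the MLL1 experiment these were ATF4 (0.06) and PSAT1 (0.11) with replicates 2 and 3 alone, and, over the libraries left out in turn, ASNS (-0.80 to 0.03), DDIT3 (-0.10 to 0.68), TRIB3 (-0.45 to 0.03), SESN2 (-0.65 to 0.03), PSAT1 (-0.60 to 0.24) and SLC7A11 (-0.04 to 0.82). In the AF9 experiment PSPH was 0.02 with total counts and -0.23 to 0.10, and SESN2 -0.70 to 0.07, when 1 library was left out. In the difference of both effects TRIB3 was -0.35 and SESN2 -0.27 with GC offsets, and -0.18 to 0.31 and -0.34 to 0.42 when 1 library was left out. The cause of these changes was not tested.

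In the AF9 experiment the same-numbered libraries had a correlation of 0.157. With 2 libraries a group the deviations mirror each other, so both pairs share this value and it cannot settle a pairing. Outside the fits with a replicate block the numbers only name the libraries. With the replicate block the same 5 members were called there, among 1221 genes higher and 739 lower of all tested. With 2 or 3 libraries a group and KD replicate 1 of the MLL1 experiment apart from the rest, small changes of most members could not be resolved.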
